A study of Mus musculus with 6 samples.

Results

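The 10 genes described here carry the vascular endothelial growth factor (VEGF) and angiopoietin signals of blood vessels. They are the growth factor gene Vegfa, its receptor genes Kdr, Flt1 and Flt4, the angiopoietin genes Angpt1 and Angpt2, the receptor genes Tek and Tie1, the phosphatase gene Ptprb and the endothelial adhesion gene Pecam1. They were taken by gene symbol from a table of 21983 genes, and all 10 were among the 13153 genes that passed a filter on low counts. RNA of whole liver was sequenced from 3 Lrat-Cre; Prmt1f/f mice (numbers 49, 82 and 88, called knockout here) and 3 Prmt1f/f mice without Cre (numbers 42, 83 and 90, called control here). All 6 were C57BL/6, carried the floxed Prmt1 alleles and drank thioacetamide (TAA), a liver toxin that causes scarring, at 400 mg/L over 16 weeks. No liver without TAA was analysed here, so no value describes what TAA did. The labels give an age of 10 weeks, shorter than the treatment, and no sex. Lrat drives Cre in hepatic stellate cells, whereas most of the 10 genes are known from endothelial cells and Vegfa also from hepatocytes. The comparison asks how loss of the arginine methyltransferase gene Prmt1 from Lrat-expressing cells went with vascular signalling transcripts in scarred liver.

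VEGF-A, made by hepatocytes and other cells and induced by low oxygen, acts mainly through VEGFR2, the product of Kdr, to drive endothelial survival, permeability and sprouting. VEGFR1, the product of Flt1, binds VEGF-A tightly and also exists as a soluble decoy, and VEGFR3, the product of Flt4, is the receptor for VEGF-C and VEGF-D and is present on liver sinusoidal as well as lymphatic endothelium. Angiopoietin-1, made by perivascular and mesenchymal cells, activates the receptor TIE2 (Tek) and quietens vessels; angiopoietin-2, released by endothelial cells, can oppose it. TIE1 modulates TIE2, and the phosphatase VE-PTP (Ptprb) removes phosphate from TIE2. In fibrotic liver this system is known for its part in vessel remodelling and in the loss of sinusoidal pores.

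Library totals were 14693392 to 15479415 counts in knockout livers and 13303884 to 16462278 in control livers, with 15168 to 15875 genes detected per liver. Levels are given as CPM, counts scaled to a common library size by the trimmed mean of M values. Prmt1 was at 35.8, 24.7 and 25.8 CPM in knockout mice 49, 82 and 88, against 38.9, 44.4 and 49.8 CPM in control mice 42, 83 and 90. The groups did not overlap, with the log2 fold change at -0.62 (SE 0.20, edgeR adjusted p = 0.347); cells without Cre also contribute Prmt1 RNA. The stellate and mesenchymal marker list summed to 580 to 1242 CPM in knockout livers and 1710 to 2004 CPM in control livers. Leukocyte markers other than macrophage genes summed to 44.3 to 58.6 CPM in knockout livers and 53.3 to 158.5 CPM in control livers. Over all genes, the counts of knockout mouse 49 lay nearer to those of control mouse 42 (chi-square of 28.4 per degree of freedom) than to those of knockout mice 82 (61.8) and 88 (65.6). A fit with a term that sets mice 42 and 49 apart gave log2 fold changes of 0.48 for Ptprb and -0.77 for Angpt2, and a fit without mouse 49 gave 0.56 and -0.69.

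None of the 10 genes differed between genotypes at an adjusted p under 0.05 in the edgeR quasi-likelihood test, DESeq2 or limma-voom with library weights. Those tests called 0%, 1.81% and 4.26% of all tested genes. At an unadjusted p under 0.05, edgeR took 1 of the 10, Ptprb, against 11.0% of all tested genes (5.06% higher and 5.95% lower). Ptprb was also the 1 gene of the 10 whose groups did not overlap, against 16.9% of all tested genes, so both shares were near the background. The count at an unadjusted p under 0.05 was 0 with size factors from RLE, total counts, the 20 most abundant genes left out, no filter, 1 CPM in 3 mice, limma-voom, the term for mice 42 and 49 or endothelial scaling, and without mouse 82, 83 or 88. It was 2 in weighted limma-voom, where Angpt2 passed beside Ptprb. The log2 fold change of knockout over control was positive for 7 of the 10 and negative for 3, with a median of 0.11 against -0.02 over all tested genes. In bulk RNA, fewer endothelial cells and less RNA per cell cannot be told apart.

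**Figure D1:**
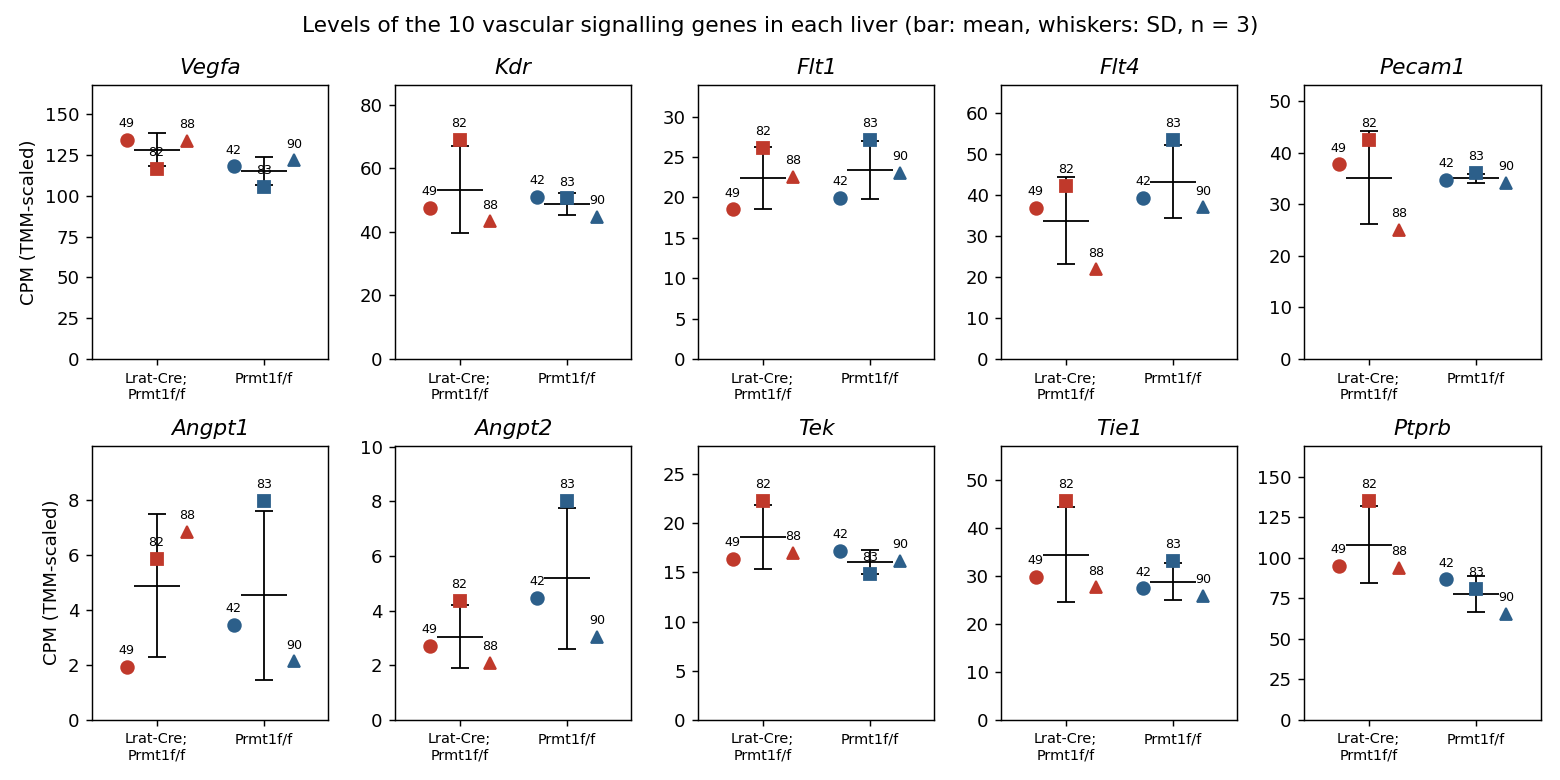
Level of each of the 10 genes in CPM (vertical axes from 0) in 3 knockout livers (left) and 3 control livers (right); points are livers, bars the mean and whiskers the SD. Points of the groups overlap in every panel but that of Ptprb, where knockout livers sit between 94.0 and 135 CPM and control livers between 65.4 and 86.6 CPM.

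Vegfa (chromosome 17, 46016993 to 46032369, minus strand, GRCm38) was steady across all livers. It was at 134, 117 and 134 CPM in knockout mice 49, 82 and 88, against 118, 106 and 122 CPM in control mice 42, 83 and 90. The groups overlapped because knockout mouse 82 lay below controls 42 and 90. Means were 128 ± 10.1 CPM in knockout and 115 ± 8.45 CPM in control livers (SD, n = 3 each), a fold of 1.11 with a 95% interval of 0.85 to 1.46 (edgeR adjusted p = 0.735).

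Of the other ligands, Vegfb, a VEGFR1 ligand gene, was at 25.4, 22.3 and 21.3 CPM in knockout livers, against 21.8, 18.8 and 30.4 CPM in control livers, with a log2 fold change of -0.04 and overlapping groups. Vegfc, which encodes a ligand of VEGFR3, was at 5.22, 5.25 and 7.49 CPM in knockout livers, against 6.20, 10.5 and 9.49 CPM in control livers. Its log2 fold change was -0.55 (SE 0.29, edgeR adjusted p = 0.512), and the groups overlapped through knockout mouse 88 and control mouse 42. Vegfd, the other VEGFR3 ligand gene, averaged 2.28 CPM in knockout and 1.90 CPM in control livers, with a log2 fold change of 0.27. Pgf averaged 0.137 CPM in knockout and 0.294 CPM in control livers, Angpt4 averaged 0.074 CPM in knockout and 0.319 CPM in control livers, and neither passed the filter on low counts.

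Kdr (chromosome 5, 75932827 to 75978458, minus strand) was at 47.6, 69.0 and 43.4 CPM in knockout mice 49, 82 and 88, against 51.0, 50.6 and 44.7 CPM in control mice 42, 83 and 90. Knockout mouse 82 was the highest of the 6 and knockout mouse 88 the lowest, so the knockout group enclosed the control group. The means were 53.3 ± 13.7 CPM in knockout and 48.8 ± 3.50 CPM in control livers, a fold of 1.09 (95% interval 0.79 to 1.51, edgeR adjusted p = 0.828). Without mouse 82 the log2 fold change turned from 0.13 to -0.12.

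Flt1 (chromosome 5, 147561604 to 147726011, minus strand) was at 18.5, 26.2 and 22.6 CPM in knockout livers, against 19.9, 27.1 and 23.1 CPM in control livers. The values of the groups interleaved, with the fold at 0.96 (95% interval 0.70 to 1.32, edgeR adjusted p = 0.921). Gene-level counts do not separate the membrane receptor from its soluble form.

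Flt4 (chromosome 11, 49609263 to 49652739, plus strand) was at 36.9, 42.3 and 21.8 CPM in knockout mice 49, 82 and 88, against 39.3, 53.4 and 37.0 CPM in control mice 42, 83 and 90. Knockout mouse 88 was low and control mouse 83 high, while the other 4 livers lay together. The log2 fold change was -0.36 (SE 0.26, edgeR adjusted p = 0.62). Leaving out mouse 88 brought it to -0.16, and leaving out mouse 83 to -0.18. Among lymphatic markers, Pdpn and Ccl21a were at 0 counts in every liver, as were 5067 genes of the whole table. The annotation used for counting is not stated, so 0 counts need not mean that a transcript was absent. Lyve1, shared by lymphatic and sinusoidal endothelium, was at 16.3, 23.5 and 13.8 CPM in knockout livers, against 31.9, 14.1 and 55.7 CPM in control livers. Prox1, a lymphatic factor gene that hepatocytes also express, stood at 0.35 with overlap. Mmrn1 was at 0.901, 1.57 and 0.793 CPM in knockout livers, against 0, 0 and 0.818 CPM in control livers, and was called higher by weighted limma-voom (adjusted p = 0.0291) but not by edgeR (adjusted p = 0.499).

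**Figure D2:**
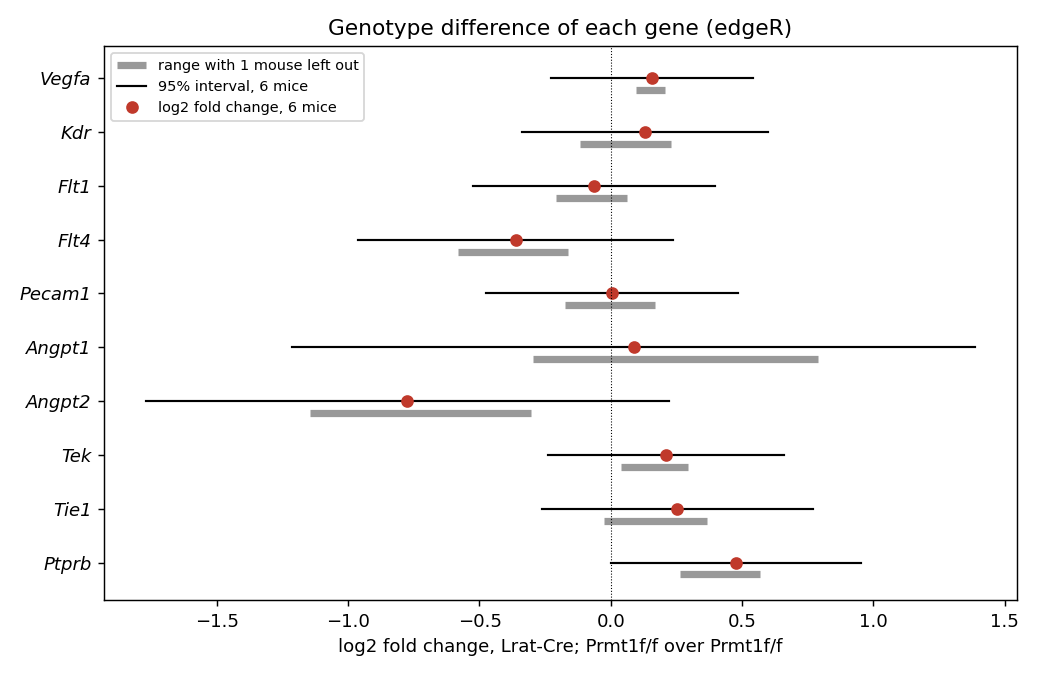
Log2 fold change of knockout over control for each of the 10 genes (horizontal axis), with the 95% interval of the edgeR fit and the values without each mouse in turn. The interval of Ptprb begins just above 0 and those of the other 9 genes span 0; the widest is that of Angpt1, from -1.21 to 1.39, and leaving out a mouse moved Angpt2 between -1.15 and -0.30.

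The angiopoietin genes had the lowest counts of the 10 and the widest spread. Angpt1 (chromosome 15, 42424723 to 42676977, minus strand) had 30, 78 and 95 reads in knockout mice 49, 82 and 88, or 1.93, 5.85 and 6.85 CPM. Control mice 42, 83 and 90 had 52, 157 and 26 reads, or 3.47, 7.98 and 2.13 CPM. High and low livers occurred in both genotypes, and the fold of 1.06 had a 95% interval of 0.43 to 2.62 (edgeR adjusted p = 0.964). Antisense gene Gm17473 overlaps 14.2% of its exon bases; neither labels nor processing notes state whether counting used strand, and the value is uncertain to that extent.

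Angpt2 (chromosome 8, 18690263 to 18741562, minus strand) had 42, 58 and 29 reads in knockout mice 49, 82 and 88, against 67, 158 and 37 reads in control mice 42, 83 and 90. That is 2.70, 4.35 and 2.09 CPM in knockout livers, against 4.47, 8.03 and 3.03 CPM in control livers. Control mouse 83 stood highest, and knockout mouse 82 lay above control mouse 90, so the groups overlapped. The log2 fold change was -0.78 (SE 0.44, fold 0.58 with a 95% interval of 0.29 to 1.17, edgeR adjusted p = 0.532), the most negative of the 10. Leaving out control mouse 83 gave a log2 fold change of -0.30, and leaving out knockout mouse 82 gave -1.15; over all alternatives the lowest adjusted p was 0.175, in weighted limma-voom.

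Tek (chromosome 4, 94739289 to 94874976, plus strand) was at 16.4, 22.3 and 17.006 CPM in knockout mice 49, 82 and 88, against 17.2, 14.8 and 16.2 CPM in control mice 42, 83 and 90. Knockout mouse 82 stood above the other 5, which lay between 14.8 and 17.2 CPM. The fold was 1.16 (95% interval 0.85 to 1.58, edgeR adjusted p = 0.703), and the log2 fold change of 0.21 was 0.04 without mouse 82.

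Tie1 (chromosome 4, 118471191 to 118490061, minus strand) was at 29.9, 45.8 and 27.7 CPM in knockout livers, against 27.5, 33.2 and 25.9 CPM in control livers. Knockout mouse 82 was again highest and the other livers overlapped. The fold was 1.19 (95% interval 0.83 to 1.71, edgeR adjusted p = 0.688), and the log2 fold change turned from 0.25 to -0.03 without mouse 82.

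Ptprb (chromosome 10, 116275523 to 116389535, plus strand) was at 95.2, 135 and 94.0 CPM in knockout mice 49, 82 and 88, against 86.6, 80.9 and 65.4 CPM in control mice 42, 83 and 90. Every knockout liver was above every control liver, by a narrow gap between knockout mouse 88 and control mouse 42. The means were 108 ± 23.6 CPM in knockout and 77.6 ± 10.9 CPM in control livers (SD, n = 3 each), a fold of 1.39 with a 95% interval of 1.001 to 1.94. The log2 fold change was 0.48 (SE 0.21); the unadjusted edgeR p was 0.0494, the 1429th smallest of 13153, and the adjusted p was 0.453. The adjusted p lay between 0.174 and 0.87 over the alternatives, and the log2 fold change was 0.26 without mouse 82. With libraries scaled by total counts the groups of Ptprb overlapped.

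Pecam1 (chromosome 11, 106654217 to 106750628, minus strand), which encodes the junction protein CD31 of endothelial cells, platelets and some leukocytes, averaged 35.1 ± 9.0003 CPM in knockout and 34.985 ± 0.946 CPM in control livers (SD, n = 3 each). It was at 37.7, 42.5 and 25.1 CPM in knockout mice 49, 82 and 88, against 34.7, 36.0 and 34.2 CPM in control mice 42, 83 and 90. The 3 control livers were nearly equal, while the knockout livers spread to both sides of them, and the fold was 1.003 (95% interval 0.72 to 1.40, edgeR adjusted p = 0.994). The platelet list, of which 3 genes were tested, summed to 11.6 to 16.998 CPM in knockout and 16.1 to 17.8 CPM in control livers.

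Per kilobase of exon, Vegfa had the highest level of the 10, at 29.9 ± 2.36 CPM per kb in knockout and 26.9 ± 1.97 CPM per kb in control livers, above each of the other 9 in all 6 livers. By the mean over all 6 livers, Ptprb followed at 8.11 ± 1.77 CPM per kb in knockout and 5.82 ± 0.821 CPM per kb in control livers. Tie1, Kdr, Pecam1, Flt4 and Tek came next, from 7.01 CPM per kb down to 3.94 CPM per kb in knockout livers and from 5.87 CPM per kb down to 3.41 CPM per kb in control livers. Tie1 lay above Ptprb in the mean of the control livers alone. From Ptprb to Tek, the ranges over livers of neighbours in this order overlapped. Tek lay above Flt1 in 6 of 6 livers without overlap, with Flt1 at 1.66 ± 0.282 CPM per kb in knockout and 1.73 ± 0.268 CPM per kb in control livers. Angpt2, at 0.826 ± 0.316 CPM per kb in knockout and 1.40 ± 0.698 CPM per kb in control livers, and Angpt1, at 0.936 ± 0.499 CPM per kb in knockout and 0.869 ± 0.589 CPM per kb in control livers, came last, and the ranges of Flt1, Angpt2 and Angpt1 overlapped from each to the next.

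In the knockout group the receptors, Ptprb and Pecam1 were all highest in the same liver. Knockout mouse 82 was the highest of the 3 knockout livers for all 7 of Kdr, Flt1, Flt4, Tek, Tie1, Ptprb and Pecam1, and the highest of the 6 for 5 of them; Flt1 and Flt4 were highest in control mouse 83. Relative to the mean of knockout mice 49 and 88, mouse 82 had 1.59 times the level of Tie1, 1.52 times that of Kdr and 1.27 times that of Flt1, but 0.870 times that of Vegfa. Knockout mouse 88 was the lowest of its group for 5 of the 7 genes. The coefficient of variation of Kdr was 25.8% in knockout and 7.17% in control livers, and that of Pecam1 was 25.6% in knockout and 2.71% in control livers.

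**Figure D3:**
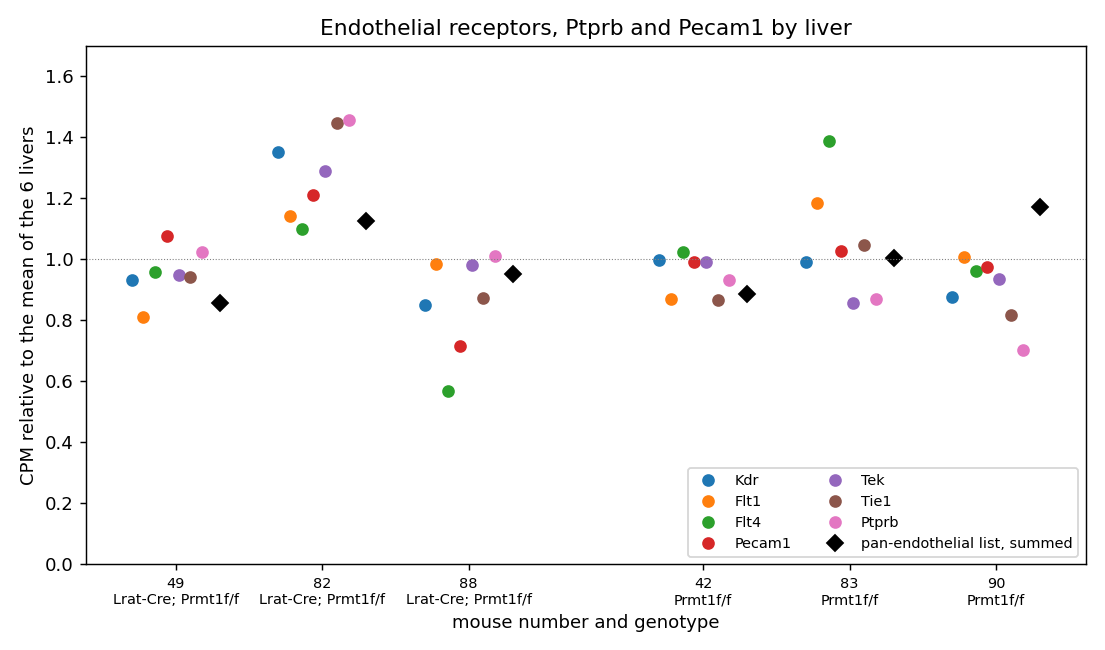
Level of 7 endothelial genes relative to the mean of the 6 livers (vertical axis), by mouse number with knockout mice at the left. Knockout mouse 82 holds the highest point for 5 of the 7 genes, and the lowest points of 3 genes are in knockout mouse 88.

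Some of this spread was shared with other endothelial genes. A list of 20 pan-endothelial genes, none of them among the 10, summed to 386, 507 and 428 CPM in knockout mice 49, 82 and 88, against 399, 452 and 527 CPM in control mice 42, 83 and 90. Mouse 82 had the highest sum of the knockout group, but the highest of all was in control mouse 90, in which 0 of the 7 genes was highest of the 6. Expressed as a share of that sum, Ptprb was at 24.7%, 26.7% and 21.96% in knockout livers, against 21.7%, 17.9% and 12.4% in control livers. Those groups too did not overlap, while all 9 other genes overlapped on this scale. Ptprb was already separate in CPM, and the share of all genes without overlap on this scale was not computed. Eng weighs heavily in the sum, at 99.6, 145 and 167 CPM in knockout mice 49, 82 and 88. In control mice 42, 83 and 90 it was at 119, 143 and 168 CPM. Scaled to the endothelial sum, the log2 fold change of Ptprb was 0.50 (edgeR adjusted p = 0.723). The part of endothelial cell number in these values was not tested.

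The proximal promoters of Tek, Kdr and Flt1, receptors that were all highest of the knockout group in mouse 82, are shown to let their sequence be compared. Each run is the 250 bases upstream of the RefSeq start (GRCm38.p6, 5′ to 3′ on the gene's strand). Capitals mark GGAAG or its reverse complement CTTCC. This string is longer than the GGAA core bound by ETS factors such as Fli1 and Elk3. GGAA or TTCC outside it, as in each window, is left in lower case. The windows are chr4:94739039-94739288 (plus strand) for Tek, chr5:75978456-75978705 (minus strand) for Kdr and chr5:147726012-147726261 (minus strand) for Flt1.
Tek: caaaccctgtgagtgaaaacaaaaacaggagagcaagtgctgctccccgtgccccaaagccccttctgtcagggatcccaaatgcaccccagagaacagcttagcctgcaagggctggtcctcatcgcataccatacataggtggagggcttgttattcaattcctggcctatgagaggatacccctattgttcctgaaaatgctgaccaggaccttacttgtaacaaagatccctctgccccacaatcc
Kdr: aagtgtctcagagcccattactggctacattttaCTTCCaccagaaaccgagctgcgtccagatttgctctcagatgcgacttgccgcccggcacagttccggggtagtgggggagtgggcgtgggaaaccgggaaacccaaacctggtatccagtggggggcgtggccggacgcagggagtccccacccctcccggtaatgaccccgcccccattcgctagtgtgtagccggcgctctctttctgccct
Flt1: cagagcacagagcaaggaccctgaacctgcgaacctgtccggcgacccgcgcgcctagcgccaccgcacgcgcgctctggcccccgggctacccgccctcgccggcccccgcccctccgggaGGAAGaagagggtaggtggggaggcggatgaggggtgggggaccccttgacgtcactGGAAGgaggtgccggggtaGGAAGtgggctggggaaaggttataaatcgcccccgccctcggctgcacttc
The longer string, GGAAG or CTTCC, occurred 0 times in the Tek window, 1 time in that of Kdr and 3 times in that of Flt1, on both strands together. It was found in 64.1% of 32851 promoter windows of the same length, so a match is common. The GC box GGGCGG, read on both strands, occurred 0, 2 and 3 times in the windows of Tek, Kdr and Flt1 and in 32.7% of all windows. The table held promoters of 6 of the 10 genes. The windows of Tie1 and Flt4, which lie wholly or largely inside the GENCODE gene, are not printed; they held GGAAG or CTTCC 6 times and 1 time, and 0.271% of all windows held it 6 times or more.

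Ratios of gene pairs within a liver cancel the scaling of its library. Read counts of Angpt2 over Angpt1 gave 1.40, 0.744 and 0.305 in knockout mice 49, 82 and 88, against 1.29, 1.01 and 1.42 in control mice 42, 83 and 90. Knockout mouse 49 lay among the controls, mouse 82 below each of them and mouse 88 far below them. The mean log2 difference of -0.85 was -0.27 without mouse 88 and -1.36 without mouse 49. Flt4 over Kdr averaged 0.630 ± 0.136 in knockout and 0.885 ± 0.151 in control livers (SD, n = 3 each), and overlapped by a hair, with knockout mouse 49 at 0.774 and control mouse 42 at 0.771. Ptprb over Tek, the phosphatase relative to its substrate receptor, was 5.80, 6.06 and 5.53 in knockout livers, against 5.03, 5.45 and 4.04 in control livers. This was the 1 ratio of 6 whose groups did not overlap, with a mean log2 difference of 0.27 that was 0.14 without control mouse 90. Ptprb also separated the groups in CPM, so the ratio is not an independent result. How often ratios of other gene pairs separate the groups was not computed. Flt1 over Kdr averaged 0.429 ± 0.0786 in knockout and 0.481 ± 0.0788 in control livers, with overlap. Tek over Tie1 averaged 0.551 ± 0.0634 in knockout and 0.566 ± 0.103 in control livers, and Kdr over Pecam1 averaged 1.54 ± 0.245 in knockout and 1.39 ± 0.0803 in control livers, both with overlap.

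**Figure D4:**
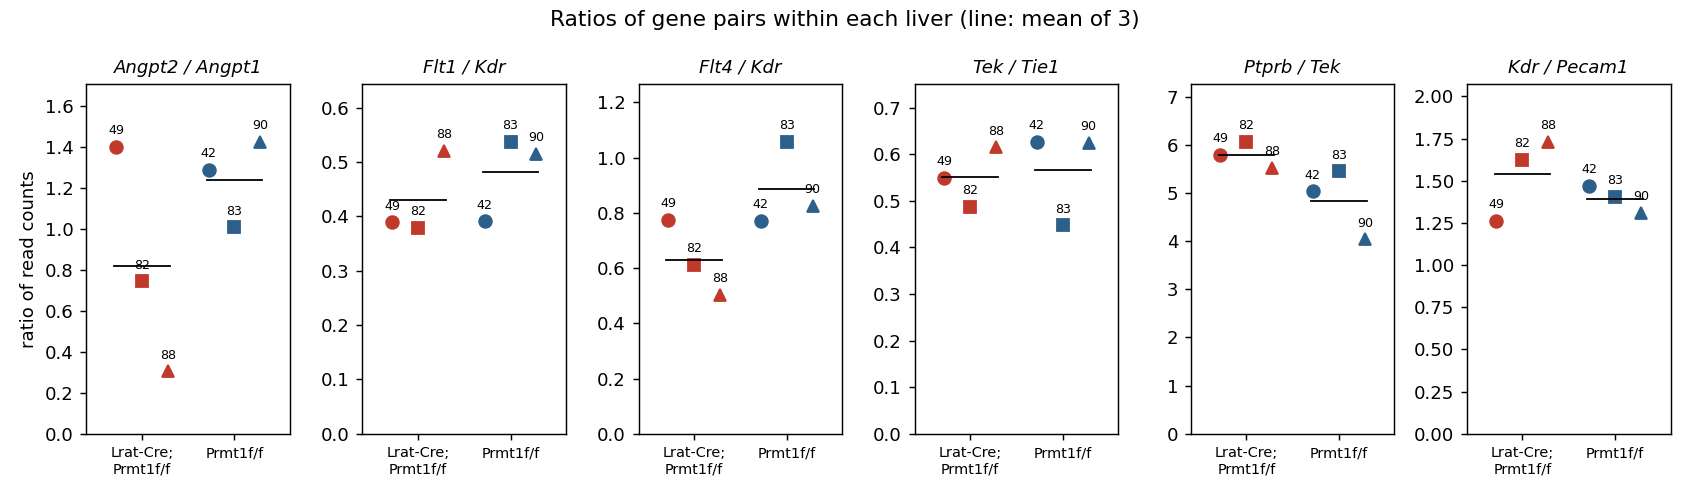
Ratio of read counts of 6 gene pairs within each liver (vertical axes from 0), knockout livers left and control livers right, with a line at the mean of 3. Ptprb over Tek lies at 5.53 to 6.06 in knockout livers and 4.04 to 5.45 in control livers, and the other 5 ratios overlap.

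Genes around the 10 in the pathway were read from lists of co-receptors, intracellular relay, induced genes and hypoxia genes. Of 14 tested co-receptors and partners, 11 had negative and 3 positive log2 fold changes with a median of -0.11, and 0 passed an adjusted or unadjusted p under 0.05 in edgeR, nor an adjusted one in DESeq2. At an unadjusted p under 0.05, 2 were lower without mouse 90 and 1 with total counts or in weighted limma-voom; the median was -0.02 without mouse 83 and -0.24 without mouse 90. Cd151, a tetraspanin of integrin complexes, was at 79.3, 84.1 and 90.6 CPM in knockout livers, against 91.9, 110.1 and 113.0 CPM in control livers. Its groups did not overlap, with a log2 fold change of -0.31 (SE 0.17, edgeR adjusted p = 0.521). It was the 1 gene of the 14 without overlap, and 1046 of all 13153 tested genes were lower without overlap. Itgav, an integrin subunit that also activates TGF-beta, stood at -0.40 (SE 0.22) with overlapping groups.

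Of 20 relay genes, 10 were positive and 10 negative with a median of -0.01; edgeR and DESeq2 called 0, and 2 were higher at an unadjusted p under 0.05 in edgeR, against 5.06% of all tested genes. Foxo1, a transcription factor that AKT downstream of TIE2 keeps out of the nucleus, was at 61.2, 67.2 and 80.8 CPM in knockout livers, against 56.0, 44.6 and 33.6 CPM in control livers. Plcg1, the phospholipase recruited by VEGFR2, was at 61.2, 89.8 and 81.3 CPM in knockout livers, against 60.2, 57.3 and 36.7 CPM in control livers. Both sets of groups were separate, with log2 fold changes of 0.64 (SE 0.22) and 0.59 (SE 0.24) and edgeR adjusted p of 0.365 and 0.424. Of all 13153 tested genes, 1176 were higher without overlap. Both genes are also expressed in hepatocytes, whose marker list summed to 97048 to 118723 CPM in knockout and 78308 to 119653 CPM in control livers. The median log2 fold change of that marker list was 0.40, with 10 genes positive and 4 negative. The part of hepatocytes in Foxo1 and Plcg1 was not tested. With libraries scaled by total counts, or without mouse 88, the count of relay genes at an unadjusted p under 0.05 was 0; it was 1 without mouse 82 and 1 without mouse 90 in the higher direction.

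All 15 tested genes of the list of VEGF-induced and tip cell genes had negative log2 fold changes, with a median of -0.56, and 6 were lower at an unadjusted p under 0.05, against 5.95% of all tested genes; edgeR and DESeq2 called 0 after adjustment. Cotl1, an actin-binding protein gene, was at 27.0, 36.0 and 31.5 CPM in knockout livers, against 38.2, 62.1 and 71.8 CPM in control livers. Kcne3, a potassium channel subunit gene of tip cells, was at 2.38, 5.25 and 5.98 CPM in knockout livers, against 6.60, 12.04 and 14.7 CPM in control livers. Both were separate between groups, at -0.86 (SE 0.25) and -1.29 (SE 0.41), with edgeR adjusted p of 0.323 and 0.347. The other 4 of the 6 were Cxcr4 (-0.88), Esm1 (-1.22), Trp53i11 (-0.56) and Mcam (-0.62). Lower without overlap were 4 of the 15, against 1046 of 13153 tested genes. Without mouse 83, 12 of 15 were negative and 3 were lower at an unadjusted p under 0.05; without mouse 82 it was 4. Cotl1 and Cxcr4 are also expressed by leukocytes, and all 15 tested genes of the other leukocyte list were negative too, with a median of -1.41. In the stellate and mesenchymal list 19 of 20 genes were negative, with a median of -0.73. The part of leukocytes and of stellate and mesenchymal cells in these values was not tested.

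Of 15 tested hypoxia response genes, 10 were negative and 5 positive with a median of -0.05, and 3 were higher at an unadjusted p under 0.05, against 5.06% of all tested genes; edgeR and DESeq2 called 0 after adjustment. Pfkfb3, a glycolysis regulator, was at 38.1, 40.3 and 32.8 CPM in knockout livers, against 31.1, 25.4 and 26.01 CPM in control livers, without overlap (log2 fold change 0.43, SE 0.17, edgeR adjusted p = 0.416). Bnip3, a mitophagy gene, stood at 0.58 (SE 0.23, edgeR adjusted p = 0.422) with knockout mouse 49 below control mouse 90, and was higher in weighted limma-voom at 0.79 (adjusted p = 0.0407). Epas1, which encodes the oxygen-regulated factor HIF-2 alpha, stood at 0.57 (SE 0.24). The summed level of the list was 788 to 855 CPM in knockout and 656 to 742 CPM in control livers, without overlap. That sum is weighted to abundant genes. Epas1 averaged 248 CPM in knockout and 167 CPM in control livers, and Bnip3 averaged 159 CPM in knockout and 106 CPM in control livers. With 10 of 15 genes negative, the higher sum does not describe the list as a whole. Hepatocyte markers had a median log2 fold change of 0.40, with 4 of 14 higher without overlap, against 1176 of 13153 tested genes. The part of hepatocytes was not tested. The count of 3 was 0 with total counts, without mouse 82 or without mouse 83, and 1 without mouse 88 or without mouse 90. Hif1a itself was at -0.02 and Slc2a1, a glucose transporter gene, at -0.14.

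Of 19 tested endothelial transcription factors, 15 were negative and 4 positive, with a median of -0.41. Lower at an unadjusted p under 0.05 were 5, all of them without overlap. Among all 13153 tested genes, 5.95% were lower at that threshold and 1046 were lower without overlap. Klf4, a factor of endothelial quiescence that other cells also express, was at 3.03, 3.597 and 2.02 CPM in knockout livers, against 7.33, 12.9 and 6.54 CPM in control livers. Its log2 fold change was -1.63 (SE 0.36); edgeR gave an adjusted p of 0.256, and Klf4 was the 1 gene of the list that DESeq2 called lower (adjusted p = 0.00701), as did weighted limma-voom (adjusted p = 0.0287). Heyl, a Notch target also known from mural cells, was at 2.70, 3.45 and 4.97 CPM in knockout livers, against 7.47, 8.39 and 5.73 CPM in control livers. The others were Elk3 (-0.51), Fli1 (-0.83) and Lyl1 (-1.05). The count of 5 was 1 without mouse 83 and 3 without mouse 82, 88 or 90. The stellate and mesenchymal list, with 19 of 20 genes negative and a median of -0.73, and the leukocyte list moved in the same direction; their part was not tested.

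**Figure D5:**
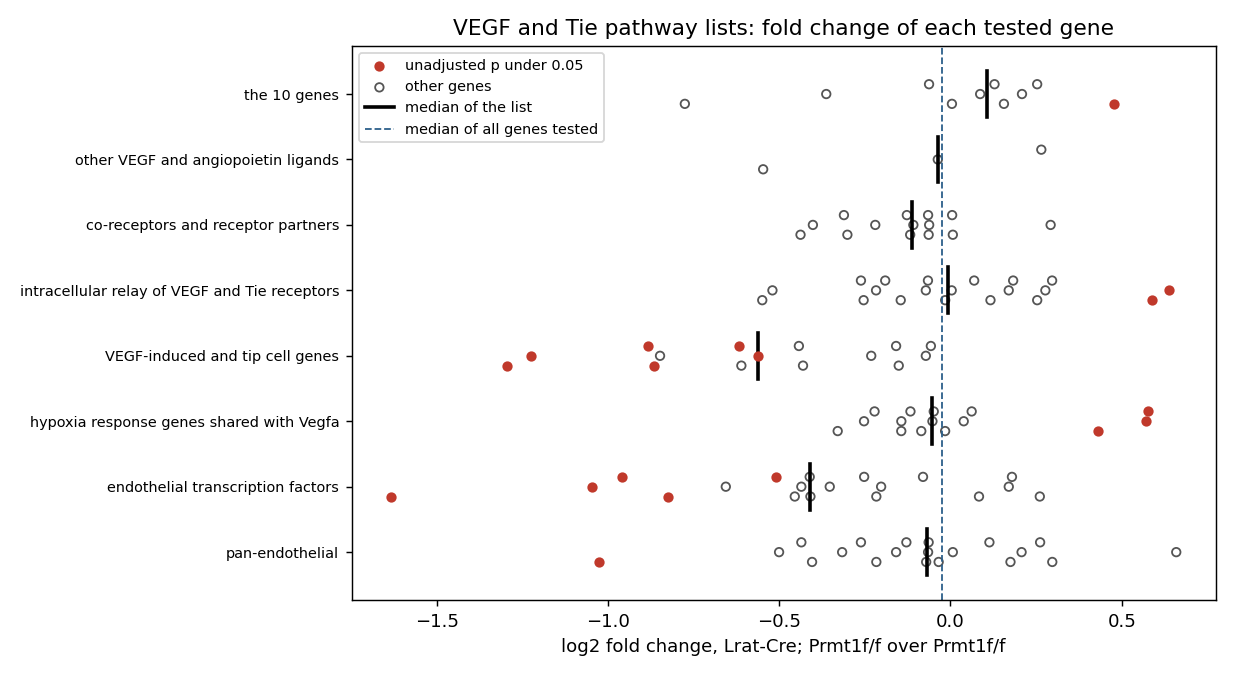
Log2 fold change of knockout over control (horizontal axis) for each tested gene of the 10 and of 7 pathway and endothelial lists; each point is a gene and the bar is the median. All 15 VEGF-induced and tip cell genes lie below 0 with a median of -0.56, whereas the 10 genes lie on both sides of 0 with a median of 0.11.

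Other endothelial lists had genes on both sides of 0. Of 20 pan-endothelial genes, 13 were negative and 7 positive with a median of -0.07. Ecscr, an endothelial surface gene, stood at -1.03 (SE 0.37, edgeR adjusted p = 0.375). It was the 1 gene of the 20 that was lower at an unadjusted p under 0.05, against 5.95% of all tested genes. That count was 0 without mouse 88 or 90, 2 without mouse 83 and 3 without mouse 42. Esam, a tight junction adhesion gene, was at 16.0, 15.6 and 15.1 CPM in knockout livers, against 18.1, 17.4 and 30.7 CPM in control livers. Stab1, a scavenger receptor gene of sinusoidal endothelium, stood at -0.25 (SE 0.19) with overlap. The sinusoidal list of 15 genes, counted without Kdr and Flt4, summed to 1431 ± 176 CPM in knockout and 1430 ± 260 CPM in control livers (SD, n = 3 each). Of these sums, Ctsl alone gave 764 CPM in knockout and 731 CPM in control livers, so they say little about the other genes. In that list 9 genes were negative and 6 positive, with a median log2 fold change of -0.10. The vein, artery and capillarized list of 18 genes summed to 328 ± 58.4 CPM in knockout and 462 ± 113 CPM in control livers, with overlap. Its 17 tested genes had a median of -0.18. At an unadjusted p under 0.05, 2 of the 17 were lower, against 5.95% of all tested genes. Lower without overlap was 1 of the 17, against 1046 of 13153 tested genes. Plvap, the gene of the diaphragm protein of capillary pores, was at 47.2, 48.3 and 36.5 CPM in knockout livers, against 53.5, 63.3 and 105.1 CPM in control livers, without overlap. Its log2 fold change was -0.75 (SE 0.27, edgeR adjusted p = 0.374), and that of the tetraspanin gene Cd9 was -0.85 (SE 0.31, edgeR adjusted p = 0.384).

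The genes whose pattern over the 6 livers was most like that of each of the 10 were found by the root mean square difference of mean-centred log2 CPM. The nearest gene to Kdr was Arhgef15, at a difference of 0.06, that to Tek was S1pr1, at 0.04, and that to Pecam1 was Mmrn2, at 0.08; these 3 are on the pan-endothelial list. Nearest to Vegfa was Ugp2 at 0.03, to Flt1 Fnbp1 at 0.07, to Flt4 Rad54b at 0.15 and to Tie1 Armcx4 at 0.09. Nearest to Ptprb was Slc16a12 at 0.07, to Angpt1 Fam13c at 0.13 and to Angpt2 Nsg1 at 0.16. With 6 livers and 4445 to 12781 genes compared, such likeness is a description of these libraries.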

How the data were processed

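Raw read counts per gene of 6 livers were deposited by the authors in 1 table. Per the submitters' processing notes, Trimmomatic, FastQC, STAR and HTSeq were used with mm10; their versions, the annotation and the strand setting are not stated in those notes or the labels. The labels describe separate mice.

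Counts were filtered (filterByExpr), scaled by TMM and tested with edgeR 4.0.16 quasi-likelihood F tests (R 4.3.3) over all 13153 genes kept, genotype as the only term, Benjamini-Hochberg adjustment at 0.05. Unadjusted p-values are not corrected for the number of genes. Intervals are 95% t intervals on 8.75 degrees of freedom. Alternatives used limma 3.58.1, DESeq2 1.42.0, other scalings and filters, a term for mice 42 and 49, and each mouse left out. List counts under alternatives, and group overlap under endothelial scaling, were added after seeing the data.

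Positions and exon lengths come from GENCODE M21 (GRCm38, the assembly of mm10). The 10 genes and 16 other lists were chosen with earlier results of these data known. All 10 genes were named, as were the 2 genes with the smallest p of each list, leaving out the 10, and the nearest gene to each of the 10. Named after their values were seen were Cxcr4, Esm1, Trp53i11, Mcam, Epas1, Hif1a, Slc2a1, Elk3, Fli1, Lyl1, Vegfb, Prox1, Mmrn1, Pgf, Angpt4, Pdpn, Ccl21a, Ctsl and Eng.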

Additional observations from a re-analysis of the deposited data

How the results depend on the processing

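Called genes numbered 0 in edgeR, with 1448 at an unadjusted p under 0.05. They were 3 at an adjusted p of 0.10, 4 with no low-count filter, 6 with a term for mice 42 and 49, 238 in DESeq2 and 560 in weighted limma-voom, and 0 to 13 with a mouse left out (13 without mouse 49). None of the 10 genes was called under any alternative. Vegfa, Flt4, Angpt2, Tek and Ptprb kept their sign in all 17 alternative fits, in ranges of 0.02 to 0.23, -0.58 to -0.16, -1.15 to -0.30, 0.04 to 0.33 and 0.26 to 0.57. Scaling by total counts moved the median of all genes to -0.17, from -0.02, and gave -0.038 for Kdr, -0.15 for Angpt1 and -0.15 for Pecam1. Angpt1 was also below 0 in limma-voom (-0.0011), weighted limma-voom (-0.037) and with the term for mice 42 and 49 (-0.042). Pecam1 was -0.023 without the 20 most abundant genes, -0.016 without a filter, -0.0003 at 1 CPM in 3 mice, -0.030 in limma-voom and -0.040 with weights. With a mouse left out, Kdr ranged from -0.12 to 0.23, Flt1 from -0.21 to 0.0605, Angpt1 from -0.30 to 0.79, Tie1 from -0.027 to 0.37 and Pecam1 from -0.17 to 0.17. The cause was not tested. No paired analysis was possible because the genotypes share no mouse numbers; the term for mice 42 and 49 sets those mice apart from the others and pairs none. Angpt1 and Angpt2, with 26 to 158 reads per liver, had the widest intervals.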

Other observations

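Among markers of other liver cells, the hepatocyte list had 10 of 14 tested genes positive with a median log2 fold change of 0.40; Cps1, a urea cycle enzyme gene, stood at 1.04 and Hnf4a, a hepatocyte transcription factor gene, at 0.66, both without overlap. Of 15 macrophage and Kupffer genes 9 were negative and 6 positive, with a median of -0.71; the scavenger receptor gene Marco stood at 1.47 and the lysosomal gene Cd68 at -0.75. Of 10 bile duct genes 8 were negative, with a median of -0.76; Onecut1 stood at 1.07 and Cldn4 at -1.60. The stellate and mesenchymal genes with the smallest p were Timp1, at -2.80, and Tagln, at -1.04. Those of the other leukocyte list were Ccr7, at -1.59, and Flt3, at -1.63. The platelet genes Pf4 and Itga2b stood at -0.71 and -0.29. Of 5 tested lymphatic genes 3 were negative and 2 positive; Reln, which stellate cells also express, stood at -1.01 and Lyve1 at -0.92. After edgeR adjustment 0 genes of these lists passed 0.05; at an unadjusted p under 0.05, 9 of 20 stellate and mesenchymal, 9 of 15 other leukocyte, 2 bile duct, 1 macrophage and 1 lymphatic gene were lower, against 5.95% of all tested genes, and 2 hepatocyte, 1 bile duct and 1 macrophage gene were higher, against 5.06%. DESeq2 called 1 hepatocyte, 1 lymphatic, 7 stellate and mesenchymal and 2 other leukocyte genes, of which Reln is on 2 lists. Weighted limma-voom called 2 hepatocyte genes and 1 lymphatic gene higher and 6 stellate and mesenchymal, 2 other leukocyte and 1 lymphatic gene lower.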
